A study of Canis lupus familiaris with 12 samples.

Results

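Genes of the lysosome (10 of the 832 genes that could be named on the array) were followed in a dog oral melanoma cell line given one of 3 nonsteroidal anti-inflammatory drugs. They encode 5 enzymes that take sugars or sulfate off glycolipids and glycosaminoglycans (GALC, GALNS, GUSB, GLB1 and FUCA1), the cathepsin proteases CTSD, CTSS and CTSK, the peptidase TPP1 and the cholesterol exporter NPC1. They were chosen by name, and each was read on every array feature (probe) whose RefSeq transcript belongs to it. All 10 genes were found, on 20 of 43603 probes: 9 probes for GLB1, 2 each for NPC1 and FUCA1, and 1 each for the others. All 20 probes were well above background on 12 of 12 arrays, and 0 carried an outlier flag.

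Lysosomes are acidic organelles in which soluble hydrolases break down lipids, glycans and proteins that arrive from endocytosis and autophagy. The hydrolases are made in the endoplasmic reticulum and most are carried to lysosomes by mannose-phosphate receptors, and many of their genes are targets of the transcription factors TFEB, TFE3 and MITF. Melanocytes also build melanosomes, pigment organelles related to lysosomes, and inherited loss of many of these enzymes gives storage diseases, several of them known in dogs.

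The cell line is Mi/CMM1, a single line, so the comparisons hold for that line only. The groups were cells given piroxicam (an oxicam), carprofen (an arylpropionic acid) or robenacoxib (a phenylacetic acid derivative), and control cells labelled as having had no treatment, with no vehicle named, and each group had 3 one-colour (Cy3) arrays. The labels conflict on exposure. By the sample labels the exposure was 6 h, to 116 µM piroxicam, 779 µM carprofen or 156 µM robenacoxib, whereas by the treatment protocol it was 24 h, to 779 µM piroxicam, 116 µM carprofen or 156 µM robenacoxib. In both versions the 3 concentrations differ and are described as half-maximal inhibitory, so a difference between drugs below is a difference between these treatments and not between compounds at 1 dose. The design text calls the 3 cultures of a group biological replicates and says nothing more of how they were kept apart, and the p-values measure the spread between these arrays.

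The share of spots well above background ran from 66.2% on piroxicam array 3 to 80% on carprofen array 2, and piroxicam array 3 and control array 3 lay farthest apart on the leading principal component. The arrays were on 3 slides, each scanned as a unit: slide 1 held the 3 control arrays and carprofen 1, slide 2 held carprofen 2 and 3 with piroxicam 1 and 2, and slide 3 held piroxicam 3 with the 3 robenacoxib arrays. Control cells therefore shared a slide with carprofen 1 alone, and the estimate of carprofen against control with slide as a block is carprofen 1 against the 3 controls. Piroxicam and robenacoxib reach control in that fit only through chains of slides, and both fits are given. Of the melanocyte lineage markers, 5 of 12 could be named. MITF was well above background on 12 arrays, TYR and EDNRB on 0 arrays, the KIT probes on 0 to 4 arrays, and MC1R on 0 of 3 piroxicam, 3 carprofen and 2 robenacoxib arrays, against 3 control arrays. SLC45A2, a transporter of melanosomes, was well above background on 3 of 3 arrays in every group.

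A level below is the log2 of the processed signal relative to the 75th percentile of its array, and a change is the difference of 2 group means on that scale with the standard error (SE) from limma. Levels of different genes are not comparable, since each probe has its own brightness. A change was called when its Benjamini-Hochberg adjusted p over 31996 tested probes was under 0.05. Scaling the arrays to the RNA spiked in during labelling instead would add 0.167 to every change with piroxicam, 0.356 with carprofen and 0.296 with robenacoxib, against control. With that scaling the median of all probes was at 0.145, 0.333 and 0.266, and 92.5%, 99.7% and 99.3% of the called probes were higher, against 42.5%, 40.7% and 43.1% of them as scaled here. A gene described as lower was thus lower relative to the array as a whole.

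Against control, GALC was called with all 3 drugs, 5 genes (GALNS, CTSD, CTSS, GUSB and FUCA1) with 2 of them, 3 (CTSK, NPC1 and GLB1) with 1, and TPP1 with 0. These comparisons share the same 3 control arrays. How many of all probes were called with 3, 2, 1 or 0 drugs was not counted, so the tally is a description only. With piroxicam 2 of the 10 genes were higher (GALC, NPC1), which is 20% of them beside 11.9% of all tested probes, and 4 were lower (CTSS, CTSK, CTSD, GUSB), 40% beside 16.1%. With carprofen 2 were higher (CTSS, GALC) beside 13.3% of all probes, and 5 were lower (GALNS, CTSD, GUSB, FUCA1, GLB1), 50% beside 19.5%. With robenacoxib 1 was higher (GALC) beside 9.57% and 2 were lower (GALNS, FUCA1), 20% beside 12.6%. The groups did not overlap for 6, 7 and 5 of the 10 genes in these 3 comparisons, beside 47.8%, 47.1% and 41.6% of all tested probes. Under spike-in scaling 4 of the 10 genes were higher with piroxicam, 9 with carprofen (all but GALNS) and 8 with robenacoxib, beside 39.2%, 76.1% and 67.1% of all probes, and 0 were lower with any drug, beside 3.18%, 0.225% and 0.453%. The 10 genes had median changes of -0.02 in the piroxicam, -0.07 in the carprofen and -0.05 in the robenacoxib comparison, beside -0.02, -0.02 and -0.03 over all tested probes, and under spike-in scaling 0.15, 0.28 and 0.24 beside 0.145, 0.333 and 0.266. The changes were small: the median size of a called change over all probes was 0.213, 0.203 and 0.198 with the 3 drugs, and the largest member change against control was -0.45. A slide term left 2 of the 10 genes called with piroxicam (GALC, NPC1) beside 5.09% of all probes, 5 with carprofen (GALC, GALNS, CTSD, CTSS, GUSB) beside 16.4%, and 0 with robenacoxib beside 1.41% (limma, with 4 at an unadjusted p under 0.05). Within slide 1 alone, carprofen 1 against the 3 controls, the changes were those of the slide-block fit (GALC 0.22, GALNS -0.50, CTSS 0.39). Both come from the same arrays, with 1 carprofen array, so this is not a second check of them. In the F-test over the 3 drugs 9 of the 10 genes passed, beside 48% of all probes, and TPP1 did not (adjusted p = 0.612).

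**Figure D1:**
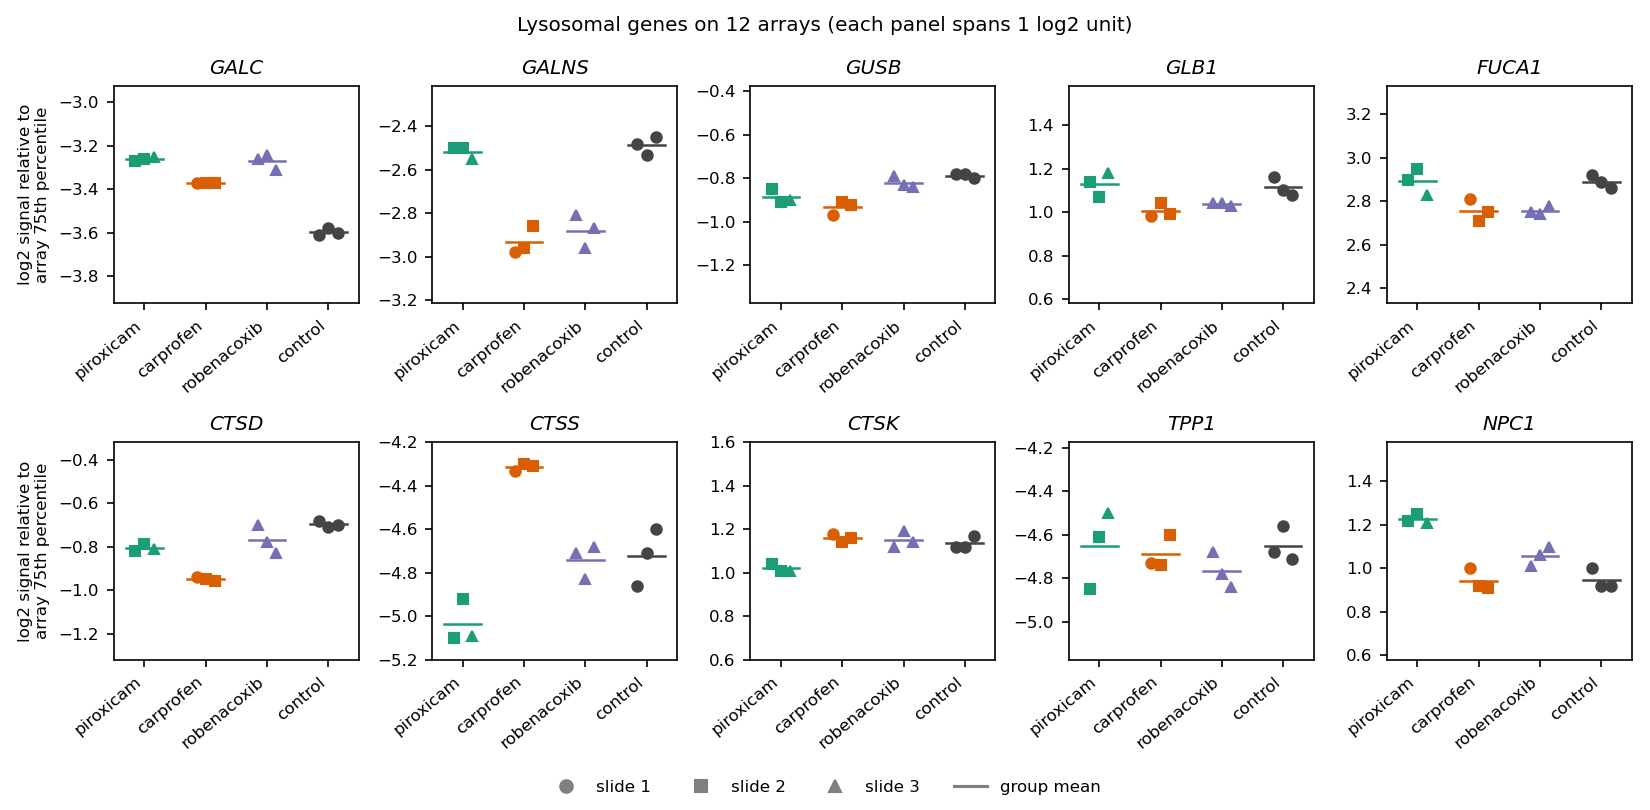
Level of each lysosomal gene on each of the 12 arrays (log2 signal relative to the 75th percentile of the array, each panel spanning 1 log2 unit), with piroxicam, carprofen, robenacoxib and control from left to right, bars for group means and symbols for slides. All 9 drug arrays lie above the 3 control arrays for GALC, the carprofen and robenacoxib arrays lie below piroxicam and control for GALNS, and the 4 groups overlap for TPP1.

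GALC, galactosylceramidase, removes galactose from the myelin lipid galactosylceramide and from psychosine, and its loss causes Krabbe disease in people and dogs. GALC stood at -3.27, -3.26 and -3.25 in the piroxicam arrays, at -3.37, -3.37 and -3.37 with carprofen and at -3.26, -3.24 and -3.31 with robenacoxib, against -3.61, -3.58 and -3.60 in control cells. Every drug array was above every control array, and piroxicam and robenacoxib arrays overlapped each other above the carprofen arrays. The change was 0.34 with piroxicam (SE 0.023, 1.26-fold, adjusted p = 2.49e-05), 0.22 with carprofen (1.17-fold, adjusted p = 0.000149) and 0.32 with robenacoxib (1.25-fold, adjusted p = 2.95e-05). Each of these calls was kept in 12 of 12 fits that left out 1 array. Blocking on slide, GALC kept its call for piroxicam (0.33, adjusted p = 0.0148) and carprofen (0.22, adjusted p = 0.00787) but not for robenacoxib (0.31, adjusted p = 0.0587). Under spike-in scaling GALC was higher still, by 0.50, 0.58 and 0.62. Its signal ran from 171 to 246 units, and its calls depended on the processing: in a fit to the values of the authors' deposited table the change was 0.24 with piroxicam (called), 0.10 with carprofen (not called) and 0.25 with robenacoxib (called). After normexp with the 75th percentile the piroxicam and carprofen changes were 0.21 and 0.12, neither called.

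GALNS, a sulfatase of keratan sulfate and chondroitin sulfate, had the largest called change against control among the 10 genes. GALNS stood at -2.50, -2.50 and -2.55 with piroxicam, at -2.98, -2.96 and -2.86 with carprofen and at -2.81, -2.96 and -2.87 with robenacoxib, against -2.48, -2.53 and -2.45 in control cells. The 6 carprofen and robenacoxib arrays were all below the 6 piroxicam and control arrays, with overlap inside each of those pairs of groups. It fell by 0.45 with carprofen (SE 0.046, 1.36-fold, adjusted p = 0.000137) and by 0.40 with robenacoxib (1.32-fold, adjusted p = 0.000439). The change with piroxicam was -0.03 (95% interval -0.135 to 0.071, adjusted p = 0.638), but it was lower and called in the fit to the authors' deposited table (-0.13, adjusted p = 0.0291) and after normexp with quantile normalization (-0.12, adjusted p = 0.0384). In the slide-block fit the carprofen change was -0.50 (adjusted p = 0.0042) and that of robenacoxib was -0.42 and not called (adjusted p = 0.129). GALNS was lower and called with both drugs under each background correction and in the fit to the authors' deposited table (-0.53 with carprofen, -0.51 with robenacoxib), while under spike-in scaling it was at -0.09 and -0.10 and not called with either.

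GUSB, the β-glucuronidase of glycosaminoglycan breakdown that is often used as a reference gene in PCR, had small changes. GUSB stood at -0.85, -0.91 and -0.90 with piroxicam, -0.97, -0.91 and -0.92 with carprofen and -0.79, -0.83 and -0.84 with robenacoxib, against -0.78, -0.78 and -0.80 in control cells. All piroxicam and carprofen arrays were below the control arrays, and the robenacoxib arrays overlapped them. It fell by 0.10 with piroxicam (adjusted p = 0.0307) and by 0.14 with carprofen (adjusted p = 0.00386), and the change with robenacoxib was -0.03 (adjusted p = 0.463). The direction depended on the processing: the change with piroxicam was 0.12 after normexp background correction with the 75th percentile and 0.07 under spike-in scaling, and that with carprofen was 0.21 under spike-in scaling and -0.05 and not called after the same normexp correction. The piroxicam call was lost in the slide-block fit (-0.15, adjusted p = 0.136) and without piroxicam 3 and control 3 (-0.10, adjusted p = 0.131), and the carprofen call was kept in the slide-block fit (-0.18, adjusted p = 0.0182). The call with piroxicam was also lost without control 1, 2 or 3 or piroxicam 2 or 3 (adjusted p from 0.0582 to 0.0882).

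FUCA1, the fucosidase whose loss causes fucosidosis in English Springer Spaniels, was read on a pair of probes. On the brighter FUCA1 stood at 2.90, 2.95 and 2.83 with piroxicam, 2.81, 2.71 and 2.75 with carprofen and 2.75, 2.74 and 2.78 with robenacoxib, against 2.92, 2.89 and 2.86 in control cells. The carprofen and robenacoxib arrays were all below the control arrays. It fell by 0.13 with carprofen (SE 0.038, adjusted p = 0.0247) and by 0.13 with robenacoxib (adjusted p = 0.0342). Both calls were lost in the slide-block fit, where the changes were -0.08 and 0.04, and both changes were positive under spike-in scaling (0.22 and 0.16). Neither was called after normexp with the 75th percentile (-0.12 and -0.15). The carprofen call was lost without control 1 or 2 or carprofen 2 or 3 (adjusted p from 0.0603 to 0.0858), and the robenacoxib call without any 1 of the control or robenacoxib arrays or without piroxicam 1 (adjusted p from 0.0518 to 0.11). The other FUCA1 probe was at -0.13 with either drug, not called, and at -0.16 with piroxicam (adjusted p = 0.0303), where the brighter probe was at 0.00. The levels on the FUCA1 probes correlated at 0.121 over the 12 arrays.

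GLB1, the lysosomal β-galactosidase whose activity is widely used as a stain for senescent cells, could be read 9 times over. On its brightest probe GLB1 stood at 1.14, 1.07 and 1.18 with piroxicam, 0.98, 1.04 and 0.99 with carprofen and 1.04, 1.04 and 1.03 with robenacoxib, against 1.16, 1.10 and 1.08 in control cells. The carprofen and robenacoxib arrays were below the control arrays, and the piroxicam arrays spanned them. It fell by 0.11 with carprofen (SE 0.034, adjusted p = 0.0345), and the change was 0.02 with piroxicam and -0.08 with robenacoxib (adjusted p = 0.147). On that probe the carprofen call was lost without control 1 or 2, carprofen 1 or 3 or piroxicam 1 (adjusted p from 0.0507 to 0.118) and in the slide-block fit (-0.13, adjusted p = 0.0931). Over the 9 GLB1 probes the carprofen changes ran from -0.34 to 0.02 with a median of -0.18, and 7 were called lower and 0 higher. With robenacoxib 3 of the 9 were called lower and 1 higher (median -0.08, from -0.19 to 0.15), and with piroxicam 2 lower and 0 higher (median -0.05, from -0.20 to 0.08). In the slide-block fit 3 of the 7 carprofen calls were kept, and 0 of the 4 with robenacoxib and 0 of the 2 with piroxicam. The 9 probes report 1 gene and are not replicates of it. Their levels correlated pair by pair at -0.556 to 0.906 over the 12 arrays (median 0.596 over 36 pairs). Under spike-in scaling the brightest probe was higher with all 3 drugs (0.19, 0.25 and 0.22), and after normexp with the 75th percentile its carprofen change was -0.08 and not called.

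**Figure D2:**
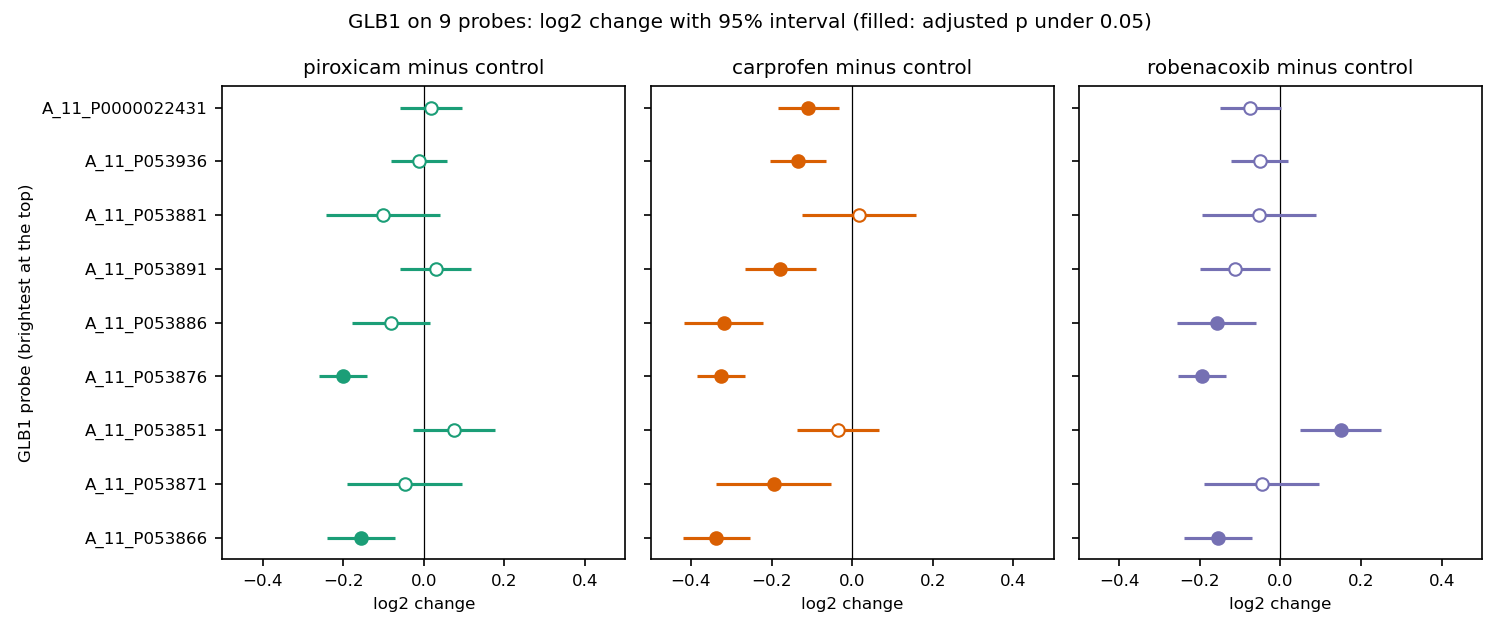
Change of GLB1 on each of its 9 probes (rows, brightest at the top) with piroxicam, carprofen and robenacoxib against control, as log2 change with 95% interval and filled points where the adjusted p is under 0.05. With carprofen 7 of the 9 probes are filled and left of 0, and with robenacoxib 1 filled probe lies right of 0.

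CTSS, a cysteine protease that stays active at neutral pH and trims the invariant chain of MHC class II in antigen-presenting cells, moved in opposite directions with piroxicam and carprofen. CTSS stood at -5.10, -4.92 and -5.09 with piroxicam, at -4.33, -4.30 and -4.31 with carprofen and at -4.71, -4.83 and -4.68 with robenacoxib, against -4.86, -4.71 and -4.60 in control cells. The piroxicam arrays were all below the control arrays, the carprofen arrays were all above them, and the robenacoxib arrays lay among them. It fell by 0.31 with piroxicam (SE 0.071, 1.24-fold, adjusted p = 0.0105) and rose by 0.41 with carprofen (1.33-fold, adjusted p = 0.00221). The change with robenacoxib was -0.01 (95% interval -0.175 to 0.145, adjusted p = 0.915). In the slide-block fit CTSS kept its call with carprofen (0.39, adjusted p = 0.0496) and lost it with piroxicam (-0.32, adjusted p = 0.251). Without piroxicam 3 and control 3 the piroxicam change was -0.22 and not called (adjusted p = 0.0958). The signal of CTSS was 67.1 to 127 units, where the dimmest probe well above background was at 11.3 to 28.5 units and the median probe at 159 to 209 units on these arrays. After normexp background correction with the 75th percentile the changes were -0.18 with piroxicam and 0.17 with carprofen, neither of them called. In the fit to the authors' deposited table they were -0.25 and 0.20, both called, and under spike-in scaling -0.15 (not called) and 0.77.

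CTSK, the collagen-degrading cathepsin of osteoclasts and fibroblasts, was printed in 5 spots on each array. CTSK stood at 1.04, 1.01 and 1.01 with piroxicam, 1.18, 1.14 and 1.16 with carprofen and 1.12, 1.19 and 1.14 with robenacoxib, against 1.12, 1.12 and 1.17 in control cells. The piroxicam arrays were below all other arrays, which overlapped one another. It fell by 0.12 with piroxicam (SE 0.027, adjusted p = 0.0107). The SD between its 5 spots on 1 array averaged 0.0583. The changes with carprofen and robenacoxib were 0.02 and 0.01 (adjusted p = 0.66 and 0.793). The piroxicam call was lost in the slide-block fit (-0.08, adjusted p = 0.412) and without piroxicam 3 and control 3 (-0.10, adjusted p = 0.106), and after normexp with the 75th percentile (-0.13), and under spike-in scaling the change was 0.05. CTSS and CTSK are neighbours in the dog gene table, with 1 long noncoding RNA listed between them, and over the 12 arrays their levels correlated at 0.707.

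CTSD, the main aspartic protease of lysosomes, was lowest with carprofen. CTSD stood at -0.82, -0.79 and -0.81 with piroxicam, -0.94, -0.95 and -0.96 with carprofen and -0.70, -0.78 and -0.83 with robenacoxib, against -0.68, -0.71 and -0.70 in control cells. The carprofen arrays were below all others, and the piroxicam arrays were below control and overlapped robenacoxib. It fell by 0.25 with carprofen (SE 0.031, 1.19-fold, adjusted p = 0.000358) and by 0.11 with piroxicam (adjusted p = 0.0266), and the change with robenacoxib was -0.07 (95% interval -0.143 to -0.003, adjusted p = 0.126). The carprofen call was kept in the slide-block fit (-0.24, adjusted p = 0.0169) and after normexp background correction (-0.29), while under spike-in scaling the change was 0.10. The piroxicam call was lost in the slide-block fit (-0.09, adjusted p = 0.461) and also without control 1, 2 or 3 or piroxicam 1 or 3 (adjusted p from 0.06 to 0.0794), and under spike-in scaling its change was 0.06. The robenacoxib change was lower and called after normexp with the 75th percentile (-0.15, adjusted p = 0.038) or quantile normalization (-0.16, adjusted p = 0.025), in the fit to the authors' deposited table (-0.16, adjusted p = 0.029) and without robenacoxib 1 (-0.11, adjusted p = 0.0266), and was at 0.22 under spike-in scaling.

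TPP1, a peptidase that takes tripeptides from the ends of proteins, had a signal of 78.4 to 104 units. TPP1 stood at -4.85, -4.61 and -4.50 with piroxicam, -4.73, -4.74 and -4.60 with carprofen and -4.68, -4.78 and -4.84 with robenacoxib, against -4.68, -4.56 and -4.71 in control cells. The groups overlapped in every comparison. The changes were 0.00 with piroxicam (95% interval -0.200 to 0.194), -0.04 with carprofen (-0.236 to 0.158) and -0.12 with robenacoxib (-0.313 to 0.081), so a rise of the size seen for GALC with robenacoxib lies outside these intervals. Under spike-in scaling the carprofen change was 0.32 and called.

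NPC1, which exports cholesterol from lysosomes after NPC2 has handed it over, was higher with piroxicam. On the brighter of its probes NPC1 stood at 1.22, 1.25 and 1.21 with piroxicam, 1.0, 0.92 and 0.91 with carprofen and 1.01, 1.06 and 1.10 with robenacoxib, against 1.0, 0.92 and 0.92 in control cells. The piroxicam arrays were above all others, the robenacoxib arrays were above the control arrays, and the carprofen and control arrays overlapped. It rose by 0.28 with piroxicam (SE 0.036, 1.21-fold, adjusted p = 0.000593). The change was -0.01 with carprofen (95% interval -0.087 to 0.075, adjusted p = 0.917) and 0.11 with robenacoxib, which was not called (adjusted p = 0.0557) but was called without control 1, carprofen 1 or robenacoxib 1 (adjusted p from 0.04 to 0.0496). The other NPC1 probe gave 0.20 with piroxicam (adjusted p = 0.00154), -0.08 with carprofen (adjusted p = 0.0771) and 0.15 with robenacoxib (adjusted p = 0.00839), and the levels on the NPC1 probes correlated at 0.821. Both calls on that probe were lost in the slide-block fit (adjusted p = 0.0656 and 0.309). On the brighter probe the piroxicam change was called under every processing shown in the grid of alternatives, from 0.28 to 0.45, including the slide-block fit (0.37, adjusted p = 0.0238). Under spike-in scaling NPC1 was also higher and called with carprofen (0.35) and robenacoxib (0.41).

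**Figure D3:**
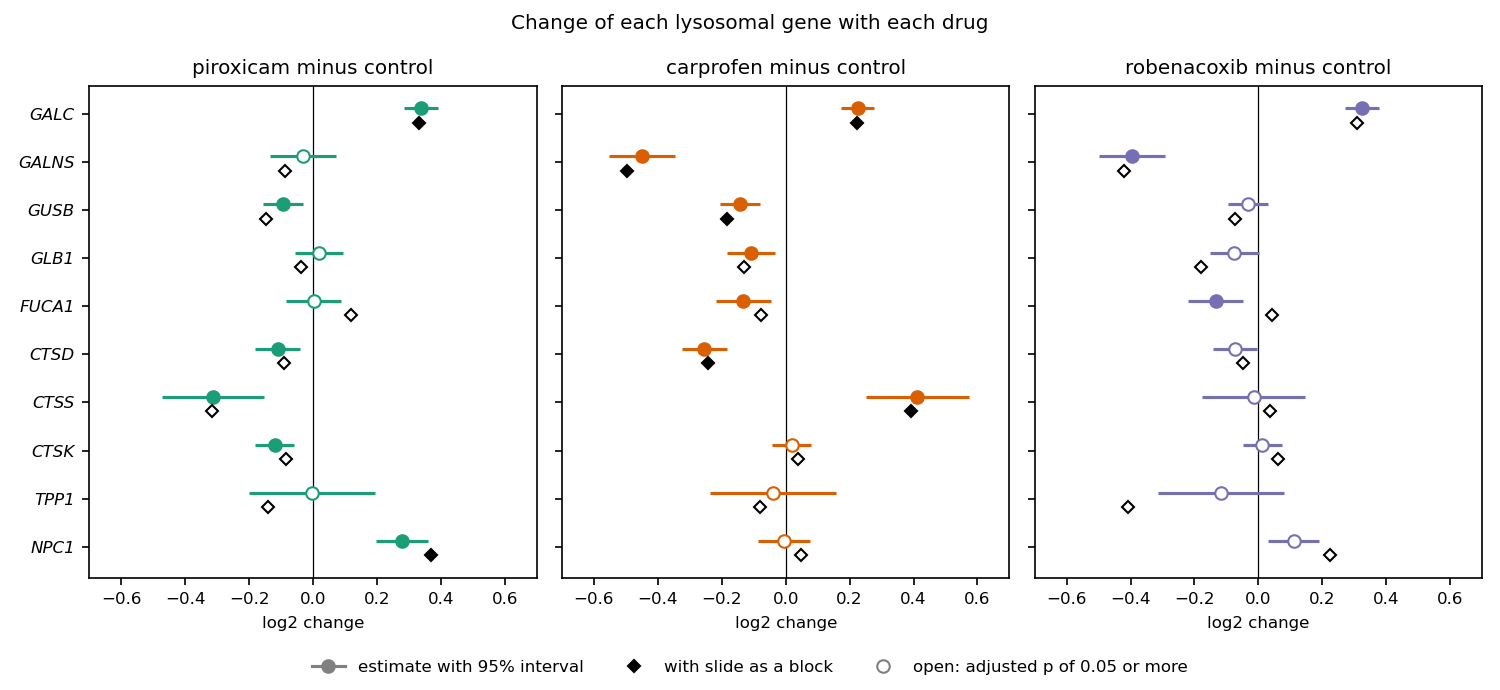
Change of each lysosomal gene with piroxicam, carprofen and robenacoxib against control (log2, circles with 95% interval) and the same change with slide as a block (diamonds), filled where the adjusted p is under 0.05. GALC lies right of 0 in all 3 panels, CTSS lies left of 0 with piroxicam and right of 0 with carprofen, and no diamond is filled with robenacoxib.

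The order of the group levels differed between genes. For GALC it ran from piroxicam through robenacoxib and carprofen down to control, and piroxicam and robenacoxib did not differ beyond their spread (adjusted p = 0.734). For GALNS it ran from control through piroxicam and robenacoxib down to carprofen, with a step between piroxicam and robenacoxib (adjusted p = 0.000415) and none called between control and piroxicam or between robenacoxib and carprofen. For CTSS the order was carprofen, control, robenacoxib and piroxicam, and control and robenacoxib were the neighbours that were not called apart (adjusted p = 0.915). For NPC1, on the brighter probe, the order was piroxicam, robenacoxib, control and carprofen. The step from piroxicam to robenacoxib was the called one (adjusted p = 0.00751), but was not called in the slide-block fit (-0.15). On the other NPC1 probe this step was -0.05 and not called (adjusted p = 0.281), while robenacoxib was called above control (0.15, adjusted p = 0.00839). For GUSB, GLB1 and TPP1 no neighbours in the order were called apart. CTSD had 1 called step, with carprofen below piroxicam (adjusted p = 0.00526), as did CTSK, with piroxicam below control, and FUCA1, with carprofen below control.

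The drugs were also compared directly, at concentrations that differ. Between carprofen and piroxicam, 2 of the 10 genes were higher with carprofen (CTSS, CTSK) beside 18.6% of all probes, and 6 were lower (GALNS, NPC1, CTSD, FUCA1, GLB1, GALC), 60% beside 18.9%. The largest of these was CTSS, by 0.73 (1.65-fold, adjusted p = 5.1e-05), followed by GALNS at -0.42 (adjusted p = 0.000101) and NPC1 at -0.28 (adjusted p = 0.000232). These groups share slide 2, and in the slide-block fit 7 of the 10 genes were called beside 30.4% of all probes, CTSS at 0.71, GALNS at -0.41 and NPC1 at -0.32 among them. The estimates of that fit are those between the 4 arrays of slide 2. The same 3 genes were called between those arrays alone, which gives the same changes and is not a second check of them. The FUCA1 call was lost without piroxicam 1 or 2 or carprofen 2 or 3 (adjusted p from 0.0539 to 0.0706), and the GLB1 call without piroxicam 3 (adjusted p = 0.0567). Under spike-in scaling CTSS was at 0.91 and GALNS at -0.23, both still called, and the NPC1 call was lost. The directions of GALC, CTSD, GLB1 and FUCA1 were turned. With that scaling 3 of the 10 genes were called higher beside 46.2% of all probes, and 1 lower beside 3.86%.

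Between robenacoxib and piroxicam, 2 genes were higher with robenacoxib (CTSS by 0.30, CTSK by 0.13) beside 13.9% of all probes. Another 3 were lower (GALNS at -0.36, NPC1 at -0.17, FUCA1 at -0.14) beside 13.2%. The other NPC1 probe was at -0.05 and the other FUCA1 probe at 0.03, neither called. Spike-in scaling adds 0.128 to each change in this comparison. With it 5 of the 10 genes were called higher beside 34% of all probes, and 1 lower beside 3.6%. In the slide-block fit GALNS (-0.33, adjusted p = 0.0148) and CTSK (0.14, adjusted p = 0.0475) stayed called, beside 18.3% of all probes. The estimates of that fit are piroxicam 3 against the 3 robenacoxib arrays, all on slide 3. Both calls thus rest on 1 piroxicam array, the one with the lowest share of spots well above background. Within slide 3 alone the same arrays gave the same changes (GALNS -0.33, CTSK 0.14), which is not a second check of them. The FUCA1 call in this comparison was lost without piroxicam 1 or 2 or robenacoxib 1 or 2 (adjusted p from 0.068 to 0.0881), and GLB1 was called without piroxicam 2 (-0.12, adjusted p = 0.0319). Between robenacoxib and carprofen, 3 genes were higher with robenacoxib (CTSD by 0.18, GUSB by 0.11, GALC by 0.10) beside 4.42% of all probes and 1 was lower (CTSS at -0.43, adjusted p = 0.00868) beside 3.74%. Of these, the GALC call was lost in 9 and the GUSB call in 11 of the 12 fits that left out 1 array (adjusted p from 0.051 to 0.115 and from 0.0518 to 0.118), and CTSD and CTSS kept theirs in 12. In that comparison the slide-block fit called 0 of the 10, beside 0.253% of all probes (limma, with 3 at an unadjusted p under 0.05). GALNS differed by 0.05 between robenacoxib and carprofen (95% interval -0.051 to 0.156, adjusted p = 0.542), and FUCA1 by 0.00 (-0.086 to 0.086).

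**Figure D4:**
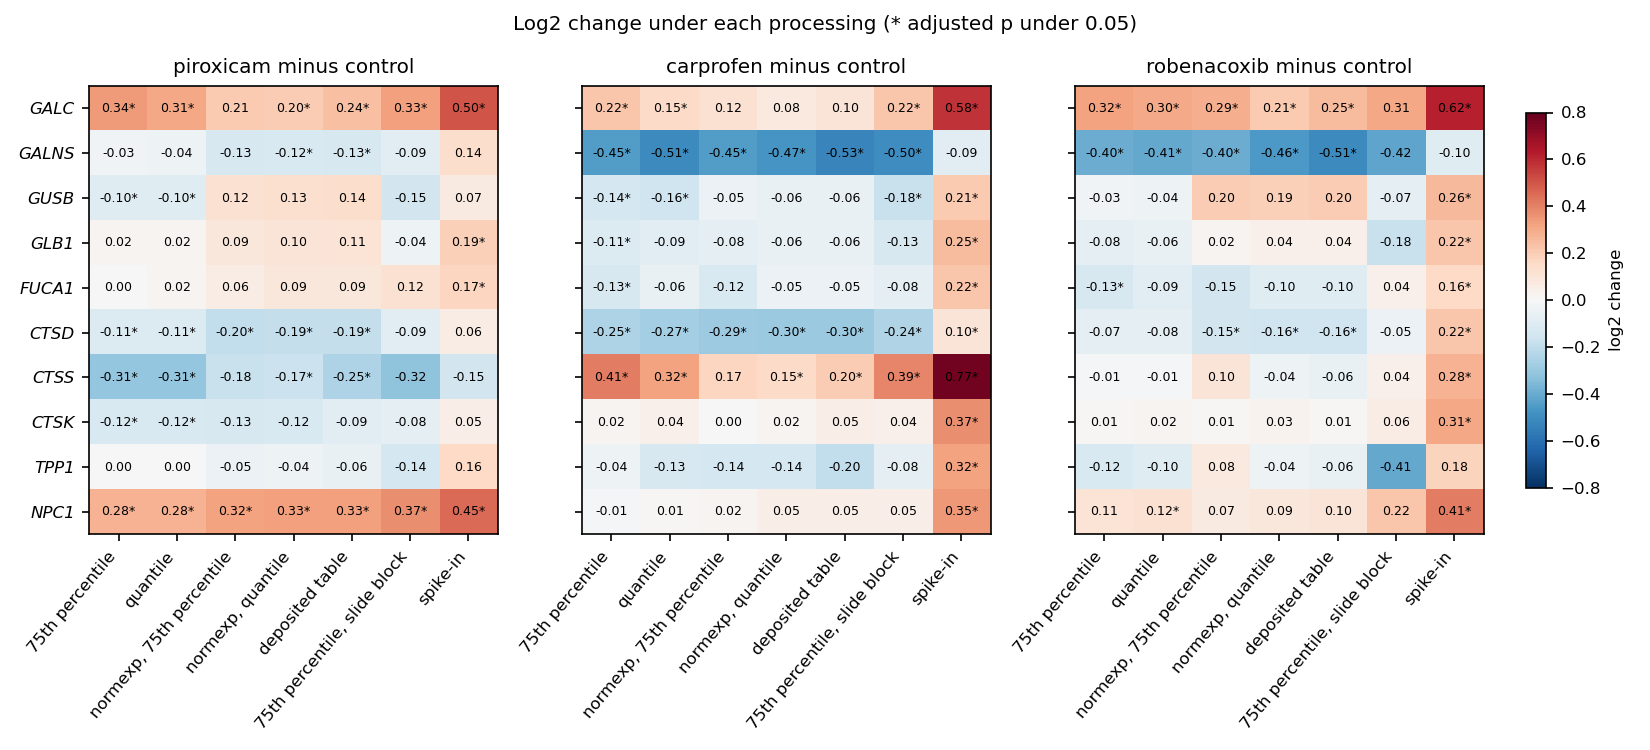
Log2 change of each lysosomal gene (rows) with piroxicam, carprofen and robenacoxib against control under 7 ways of processing the signals (columns), with a star where the adjusted p is under 0.05 and red for higher, blue for lower. With piroxicam NPC1 is red and starred in all 7 columns and GALC in 6, with carprofen GALNS is blue and starred except under spike-in scaling, and the spike-in column is mostly red.

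Few of the other lysosomal genes on the chosen lists could be named. Of 40 further lysosomal enzymes 6 were named and tested. With piroxicam 2 were higher and 0 lower, beside 11.9% and 16.1% of all tested probes. The sulfatase ARSB rose by 0.24 (adjusted p = 0.0494) and CTSA, which protects β-galactosidase and neuraminidase in a complex, rose by 0.13 (adjusted p = 0.0252). Both calls were lost after normexp with quantile normalization, where ARSB was at 0.09 (adjusted p = 0.369) and CTSA at 0.13 (adjusted p = 0.105). With carprofen 0 were higher and 2 lower, beside 13.3% and 19.5% of all probes. The same counts held with robenacoxib, beside 9.57% and 12.6%. ARSA, the sulfatase of sulfatide, fell by 0.19 with carprofen (adjusted p = 0.000999) and by 0.13 with robenacoxib (adjusted p = 0.00983). SGSH, a sulfatase of heparan sulfate, fell by 0.15 with carprofen (adjusted p = 0.0206) and by 0.20 with robenacoxib (adjusted p = 0.0102). Under spike-in scaling all 4 of these lower values were positive (ARSA 0.16 and 0.16, SGSH 0.20 and 0.10). The medians of the 6 were 0.08 with piroxicam, -0.04 with carprofen and -0.03 with robenacoxib. Of these 6 genes the slide-block fit called ARSA with carprofen (-0.14, adjusted p = 0.0305) and no other gene against control. That fit called 5.09%, 16.4% and 1.41% of all probes with piroxicam, carprofen and robenacoxib.

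Of 31 membrane and accessory proteins 4 were named and tested, with 0 higher with any drug and 1 lower with each of piroxicam, carprofen and robenacoxib. Beside these counts, 11.9%, 13.3% and 9.57% of all probes were higher, and 16.1%, 19.5% and 12.6% lower. SLC11A1, a metal ion transporter of late endosomes and lysosomes best known from macrophages, fell by 0.28 with piroxicam (SE 0.031, adjusted p = 0.000242), by 0.11 with carprofen (adjusted p = 0.028) and by 0.23 with robenacoxib (adjusted p = 0.00109), and under spike-in scaling it was at -0.12, 0.25 and 0.07. NPC2, the soluble partner of NPC1, was at 0.05, -0.02 and -0.04 and not called, but was higher and called under spike-in scaling (0.21, 0.34 and 0.26). After blocking on slide SLC11A1 was called with piroxicam (-0.22, adjusted p = 0.0313) and not with carprofen (-0.05, adjusted p = 0.334) or robenacoxib (-0.21, adjusted p = 0.117), and its carprofen call was also lost after normexp with quantile normalization (-0.06, adjusted p = 0.293).

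Of 24 genes of delivery to lysosomes and their regulation 4 were named and tested. IGF2R, the large mannose-phosphate receptor that carries hydrolases to lysosomes, rose by 0.18 with piroxicam (SE 0.030, adjusted p = 0.00228) and by 0.12 with robenacoxib (adjusted p = 0.0175) and was at -0.02 with carprofen (adjusted p = 0.658). After blocking on slide the piroxicam change of IGF2R was 0.27 and called (adjusted p = 0.026), and that with robenacoxib was 0.23 and not called (adjusted p = 0.118). IGF2R was higher and called with piroxicam, carprofen and robenacoxib under spike-in scaling (0.35, 0.34 and 0.42). RAB7A, the GTPase of late endosomes, fell by 0.24 with piroxicam (adjusted p = 0.0143) and by 0.18 with carprofen (adjusted p = 0.0409), or stood at -0.07 and 0.18 under spike-in scaling. Both RAB7A calls were lost in the slide-block fit (adjusted p = 0.226 and 0.243) and after normexp with quantile normalization (-0.17 and -0.12, adjusted p = 0.0503 and 0.187). MITF, a regulator of both melanocyte and lysosomal genes, fell by 0.13 with carprofen (adjusted p = 0.00797), or was 0.23 higher under spike-in scaling, and was at 0.00 with piroxicam and 0.09 with robenacoxib (adjusted p = 0.998 and 0.054). The MITF call was lost in the slide-block fit (-0.10, adjusted p = 0.102). Of 14 melanosome genes 4 were named and 3 tested, and 0 were called against control in the limma fit, with 2, 0 and 0 at an unadjusted p under 0.05 for piroxicam, carprofen and robenacoxib. Among all tested probes 11.9%, 13.3% and 9.57% were called higher, and 16.1%, 19.5% and 12.6% lower. Of the 6 cathepsin inhibitors and the 19 sterol genes listed, 0 could be named.

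**Figure D5:**
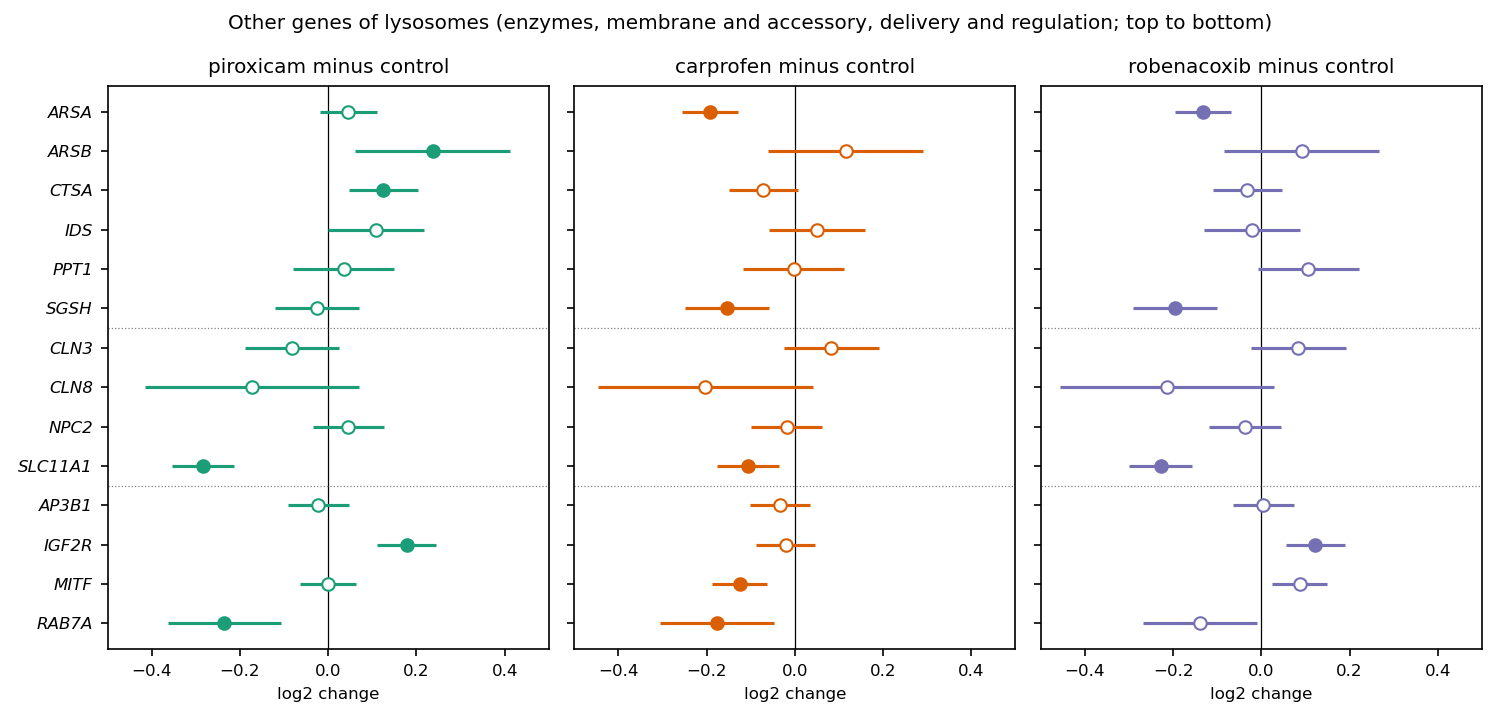
Change of the 14 other lysosomal genes on the chosen lists that were named and tested, with piroxicam, carprofen and robenacoxib against control. Rows are 6 enzymes, 4 membrane and accessory proteins and 4 genes of delivery and regulation. Points are log2 changes with 95% interval, filled where the adjusted p is under 0.05. SLC11A1 is filled and left of 0 in all 3 panels, and IGF2R is filled and right of 0 with piroxicam and robenacoxib.

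CTSS and CTSK are abundant in leukocytes, macrophages, osteoclasts and fibroblasts, so markers of those cells were read beside them. Of 13 leukocyte, macrophage and osteoclast markers 3 were named and tested (CD4, CD8A and CD86), and their summed level ran from 0.217 to 0.226 with piroxicam, from 0.201 to 0.222 with carprofen and from 0.191 to 0.242 with robenacoxib, against 0.200 to 0.234 in control cells, as multiples of the 75th percentile of the array. These ranges overlapped. With carprofen, where CTSS rose, CD86 fell by 0.23 (adjusted p = 0.00968), CD4 was at 0.27 and CD8A at -0.10, neither called. In the slide-block fit the CD86 call was lost (adjusted p = 0.0787), and CD8A was higher and called with carprofen (1.0, adjusted p = 0.049) and piroxicam (1.72, adjusted p = 0.0439). Both of these CD8A values reach control only through carprofen 1. CD8A levels ran from -5.92 to -4.1 over the carprofen arrays and from -5.47 to -4.82 over the control arrays. Without the slide term CD8A was at 0.02 with piroxicam and -0.10 with carprofen, neither called. Of 11 fibroblast markers 4 were named and tested, and their summed level was 68.9 to 72.4 with piroxicam, 65.1 to 68.7 with carprofen and 70.6 to 71.6 with robenacoxib, against 74.3 to 76.6 in control cells. COL1A2 and COL1A1 make up nearly all of that sum. With piroxicam, where CTSK was lowest, 1 of the 4 was higher (PDGFRB by 0.50, adjusted p = 0.0239), 2 were lower (DCN by -0.42, adjusted p = 0.0174, and COL1A2 by -0.10, adjusted p = 0.0413) and COL1A1 was at 0.00. Beside these counts, 11.9% of all tested probes were higher and 16.1% lower with piroxicam. With carprofen and robenacoxib, where CTSK was not called, 0 were higher and 2 lower, and PDGFRB was at 0.40 and 0.27 (adjusted p = 0.0506 and 0.202). The shares of all probes with these drugs were 13.3% and 9.57% higher, and 19.5% and 12.6% lower. The slide-block fit left 0 of the 4 called with piroxicam or robenacoxib and 1 with carprofen, beside 5.09%, 1.41% and 16.4% of all probes. Under spike-in scaling CD86 was at 0.13 with carprofen, and COL1A2 was at 0.07 with piroxicam and 0.19 with carprofen. The part of these cells in the CTSS and CTSK changes was not tested. Fewer cells of a kind and less RNA per cell cannot be told apart in these bulk samples.

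Among the 10 genes, levels over the 12 arrays were most alike for CTSD and GUSB (Pearson r = 0.883), GALNS and FUCA1 (0.864) and GALNS and GLB1 (0.794), and most opposed for CTSS and GLB1 (-0.811), CTSK and NPC1 (-0.795) and CTSS and NPC1 (-0.785). These values describe 12 arrays that share 4 groups, 3 slides and 1 scaling. For the members with the largest F, the named genes outside the list with the most similar levels were IL12RB2 (0.893), PTGFR (0.849) and ZNF331 (0.841) for GALC. For GALNS they were CCND1 (0.960), RAB8A (0.942) and ATP6V0E1 (0.937). CCND1 averaged 3.18 with piroxicam, 2.92 with carprofen and 2.93 with robenacoxib, against 3.15 in control cells, with piroxicam and control high and carprofen and robenacoxib low, as for GALNS.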

How the data were processed

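Scanner files were written by Feature Extraction 10.7.3.1 (protocol GE1_107_Sep09), per the file headers. The deposited intensity of a spot has its background subtracted and was not scaled across arrays. A table of values deposited by the authors was made using limma 3.24.15, as the submitters' processing notes have it, and its values were taken as log2 from their range. How its background was corrected, and how it was normalized, is not given in the sources used here.

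From the processed intensities, log2 values minus each array's 75th percentile were computed in R 4.3.3 with version 1.17.8 of data.table, averaging spots of a probe and leaving out control and outlier-flagged spots. Testing required a probe to stand well above background in all 3 arrays of some group (31996 probes). One limma 3.58.1 model (lmFit, eBayes, 8 residual degrees of freedom, two-sided) covered 12 arrays. The number of arrays limits the precision (median SE 0.053), and 0 spots were saturated. Scripts were tested on simulated data.

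Names came from the RefSeq table of UU_Cfam_GSD_1.0 through transcript accessions, and 1313 probes were named with 832 symbols (614 tested). The genome build of the array was not named, so no coordinates are printed. A gene with several probes was read on the brightest over the 12 arrays, and its other probes are given. The text names the 10 genes, up to 3 called genes per list and comparison, and the 3 named genes most like each of the members with the largest F. NPC2, the leukocyte and fibroblast markers and correlated pairs were added to show context. One gene of the membrane list is not reported here. The members and the lists were chosen with earlier results of these data known.

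Alternatives were normexp (offset 50, on median in place of mean signals), quantile and spike-in scaling (8 spike-in probes), the deposited table, no filter or a stricter filter on dim probes, slide and replicate number as blocks, fits within a slide or on the compared arrays, and each array left out. One alternative, without piroxicam 3 and control 3, was added after seeing the data.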

Additional observations from a re-analysis of the deposited data

How the results depend on the processing

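The count of member genes called, of 10, changed by over 1.5 times as follows, each with the share of all probes called under the same setting. Piroxicam against control (6 called) had 2 after normexp with the 75th percentile (18%), 2 with slide as a block (5.09%) and 2 without piroxicam 3 and control 3 (14.9%). Carprofen against control (7) had 2 and 3 after normexp with the 75th percentile (17%) and with quantile normalization (21.3%), 3 from the authors' deposited table (20.2%) and 0 within slide 1 (0.00313%). Robenacoxib against control (3) had 0 in the slide-block fit (1.41%) and 8 under spike-in scaling (67.6%). Carprofen against piroxicam (8) had 3 and 4 after normexp (21% and 28%), 4 under spike-in scaling (50.1%), 4 from the deposited table (27%) and 3 within slide 2 (14.2%). Robenacoxib against piroxicam (5) had 2 with slide as a block (18.3%) and 0 within slide 3 (0%). Robenacoxib against carprofen (4) had 0 after either normexp (0.656% and 2.04%), 0 from the deposited table (1.73%), 0 with slide as a block (0.253%), 1 under spike-in scaling (5.87%), 1 on the compared arrays alone (0.656%), 2 with no filter (3.21%), 2 without piroxicam 3 and control 3 (5.43%) and 2 with the replicate block (4.3%). Limma's counts of 0 there went with 3 to 5 genes at an unadjusted p under 0.05. Leaving out 1 array gave 4 to 6, 5 to 7, 2 to 4, 7 to 8, 4 to 5 and 2 to 3 in the same order of comparisons. Within slides the spread rests on few arrays; otherwise the cause was not tested.

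The deviations of same-numbered replicates from their group means correlated at -0.449 to 0.200 between pairs of groups, with values of both signs. Each group had few arrays, so these correlations cannot decide whether cultures were paired by number. With the replicate block 5, 6, 2, 8, 5 and 2 genes were called, beside 23.3%, 28.2%, 17.2%, 33.7%, 23.2% and 4.3% of all probes.

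Among changes called with or without it, spike-in scaling, which adds a constant per comparison, turned the sign for CTSD (0.06), CTSK (0.05) and GUSB (0.07) with piroxicam, for CTSD (0.10), NPC1 (0.35), GUSB (0.21), GLB1 (0.25), FUCA1 (0.22) and TPP1 (0.32) with carprofen, and for CTSD (0.22), CTSS (0.28), GUSB (0.26), GLB1 (0.22) and FUCA1 (0.16) with robenacoxib. It also turned the sign for GALC (0.08), CTSD (0.04), GUSB (0.14), GLB1 (0.06) and FUCA1 (0.05) in carprofen against piroxicam and GALC (0.12) in robenacoxib against piroxicam. GUSB with piroxicam turned after normexp (0.12 and 0.13) and in the deposited table (0.14), and FUCA1 with robenacoxib with slide as a block (0.04). Other probes differed in sign for FUCA1 (-0.16 with piroxicam, 0.03 for carprofen and 0.03 for robenacoxib against piroxicam) and GLB1 (-0.16 and -0.20 with piroxicam, 0.02 with carprofen, 0.15 with robenacoxib, 0.12 for carprofen against piroxicam).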
